A study of Mus musculus with 16 samples.

Results

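The neuregulins and the ErbB receptors are a small family of 4 ligand genes (Nrg1, Nrg2, Nrg3 and Nrg4) and 4 receptor genes (Egfr, Erbb2, Erbb3 and Erbb4). They were taken by name. The count table has 54838 gene identifiers, and of these 8 members, 7 were above 0 in at least 1 sample. RNA was sequenced from the spleens of C57BL/6 mice in 16 samples, 8 size-selected and 8 whole spleen. The size-selected samples are the cells kept back by a cell strainer once the minced spleen had been digested and its red cells lysed. Their labelled source is spleen glia, the support cells of the organ's nerve fibres. The labels give this protocol for whole spleen too and do not describe that group's preparation apart. Each of 8 numbers (407, 408, 427 and 435 male, 436, 445, 447 and 460 female) gave 1 sample of each kind. No age, treatment or genetic change is given for either group. The labels do not say that the numbers are separate animals, so the p-values measure the spread between these samples.

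Neuregulins are growth factors that are made as membrane proteins and carry an EGF-like domain held together by disulphide bonds between cysteines. That domain binds ErbB3 or ErbB4. ErbB3 has little kinase activity of its own and signals by pairing with ErbB2, which binds no known ligand, while EGFR answers to EGF, TGF-alpha, amphiregulin, betacellulin, HB-EGF and related ligands. In peripheral nerve, axonal neuregulin 1 acting on ErbB2 and ErbB3 in Schwann cells sets their survival, migration and myelination.

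The EGF-like domains of 4 ligands are shown because this is the part that the receptors bind. The coding sequence of the domain, from its first to its last cysteine, was read from GENCODE M21 transcripts on GRCm38 for Nrg1 and Nrg4 and for Tgfa and Btc (betacellulin), whose products bind EGFR. The capitals mark the 6 cysteine codons.
Nrg1: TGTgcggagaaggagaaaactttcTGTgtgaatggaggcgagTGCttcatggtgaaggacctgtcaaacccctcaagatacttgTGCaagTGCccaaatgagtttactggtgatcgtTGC
Nrg4: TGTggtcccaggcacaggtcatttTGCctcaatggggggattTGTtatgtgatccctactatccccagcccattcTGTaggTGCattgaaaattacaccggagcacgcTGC
Tgfa: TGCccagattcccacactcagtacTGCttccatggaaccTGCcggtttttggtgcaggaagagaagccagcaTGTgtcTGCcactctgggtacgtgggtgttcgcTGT
Btc: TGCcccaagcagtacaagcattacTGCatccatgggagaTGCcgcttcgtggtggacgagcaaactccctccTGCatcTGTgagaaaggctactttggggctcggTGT
The domain has 40 codons in Nrg1, 37 in Nrg4 and 36 in both Tgfa and Btc. Between the second and the third cysteine lie 5 codons in Nrg1 and Nrg4 and 4 in Tgfa and Btc. Between the third and the fourth lie 13 codons in Nrg1 and 10 in the other three. After alignment, Tgfa and Btc encode the same residue at 19 of 36 positions, Nrg1 and Nrg4 at 14 of 37, and Nrg1 and Btc at 14 of 36. Each domain is spread over 2 exons: in Nrg1 it spans chr8:31837698-31849398 (minus strand, exons 2 and 3), in Nrg4 chr9:55242177-55280969 (minus strand, exons 4 and 5), in Tgfa chr6:86263200-86269960 (plus strand, exons 3 and 4) and in Btc chr5:91362421-91366197 (minus strand, exons 3 and 4).

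Estimated counts summed to between 13119992 and 19944440 per size-selected sample and to between 12153770 and 16282454 per whole spleen sample. The labelled cell type was checked with 12 glial markers. Of these, 9 could be tested and all 9 were higher in the size-selected samples, with a summed level of 95.5 to 685 CPM (counts scaled to a common library size, with TMM) against 7.22 to 21.1 CPM in whole spleen. Of all 14510 genes tested, 37.5% were called higher and 30.4% lower, the background for each marker count in this paragraph. Fabp7, S100b and Cdh19 had a median of 0 counts in whole spleen, so such markers entered the test through the size-selected samples. Sox10, the transcription factor of the Schwann cell lineage, had 8 to 121 counts per size-selected sample and 0 to 5 in whole spleen. Other cell types were enriched in the same samples: every tested marker was higher for fibroblasts (7 of 7, summed 1061 to 3664 CPM against 5.02 to 57.6), endothelium (7 of 7, 599 to 1509 against 80.9 to 187), smooth muscle (6 of 6, 769 to 3660 against 8.42 to 69.5) and mesothelium (7 of 7, 41.2 to 265 against 0.534 to 3.75). Megakaryocyte markers were higher too (6 of 6, 92.3 to 627 CPM against 51.5 to 189), as were 2 of 3 tested sympathetic neuron markers, Stmn2 and Prph (list sum 21.6 to 62.9 against 3.59 to 8.7), with Th at 0. Of the 7 macrophage markers, 6 were tested and 3 were higher (1740 to 4162 CPM against 1181 to 1951). Of 5 tested markers each, 4 were lower for B cells (705 to 2587 CPM against 3581 to 5136), 4 for T cells (140 to 367 against 400 to 618) and 2 for erythroid cells (63 to 2388 against 197 to 9106). The part of each of these cell types in the results below was not tested. In bulk RNA, fewer cells of a type and less RNA per cell cannot be told apart.

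Among the ligands, Nrg1 and Nrg2 were about 10 times as abundant in the size-selected samples as in whole spleen, Nrg4 was low in both, and Nrg3 was not detected. Nrg1 (chr8:31814551-32884029, minus strand, 18 annotated transcripts) encodes the neuregulin of axons, also made by endothelium. Its lowest, median and highest levels were 0.896, 4.35 and 5.95 CPM in the size-selected samples and 0, 0.405 and 0.935 CPM in whole spleen. The groups overlapped through the size-selected sample of number 435, which lay below the highest whole spleen sample, but in each of the 8 numbers the size-selected value was the higher. The log2 fold change was 3.24 (SE 0.48, n = 8 and 8), a 9.42-fold difference, with an adjusted p of 8.11e-06 (edgeR's quasi-likelihood test, Benjamini-Hochberg over 14510 genes). Gene-level counts do not tell the membrane-bound and soluble forms of Nrg1 apart.

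Nrg2 encodes a related ligand, best known from neurons. Its levels were 2.49, 3.8 and 8.02 CPM in the size-selected samples and 0.0778, 0.359 and 0.718 CPM in whole spleen, with no overlap and the size-selected value higher in 8 of 8 numbers. The log2 fold change was 3.39 (SE 0.35), 10.5-fold, with an adjusted p of 8.12e-08 in the same edgeR test.

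Nrg4, a ligand that binds ErbB4, stayed below the count filter. It had 2 to 10 counts per size-selected sample and 0 to 10 in whole spleen, or medians of 0.368 and 0.236 CPM, and the ranges overlapped. Without the filter its log2 fold change was 0.37 (SE 0.54), with an edgeR adjusted p of 0.585, where 43.5% of the 28235 genes tested were called in 1 direction or the other. That filter-free background was 58.2% higher among its calls, and 69.5% when samples were scaled by library totals in place of TMM. Nrg3, a ligand of the nervous system, had 0 counts in all 16 samples; 0 counts allow up to 3 counts in a library. This limit covers counting error only.

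**Figure D1:**
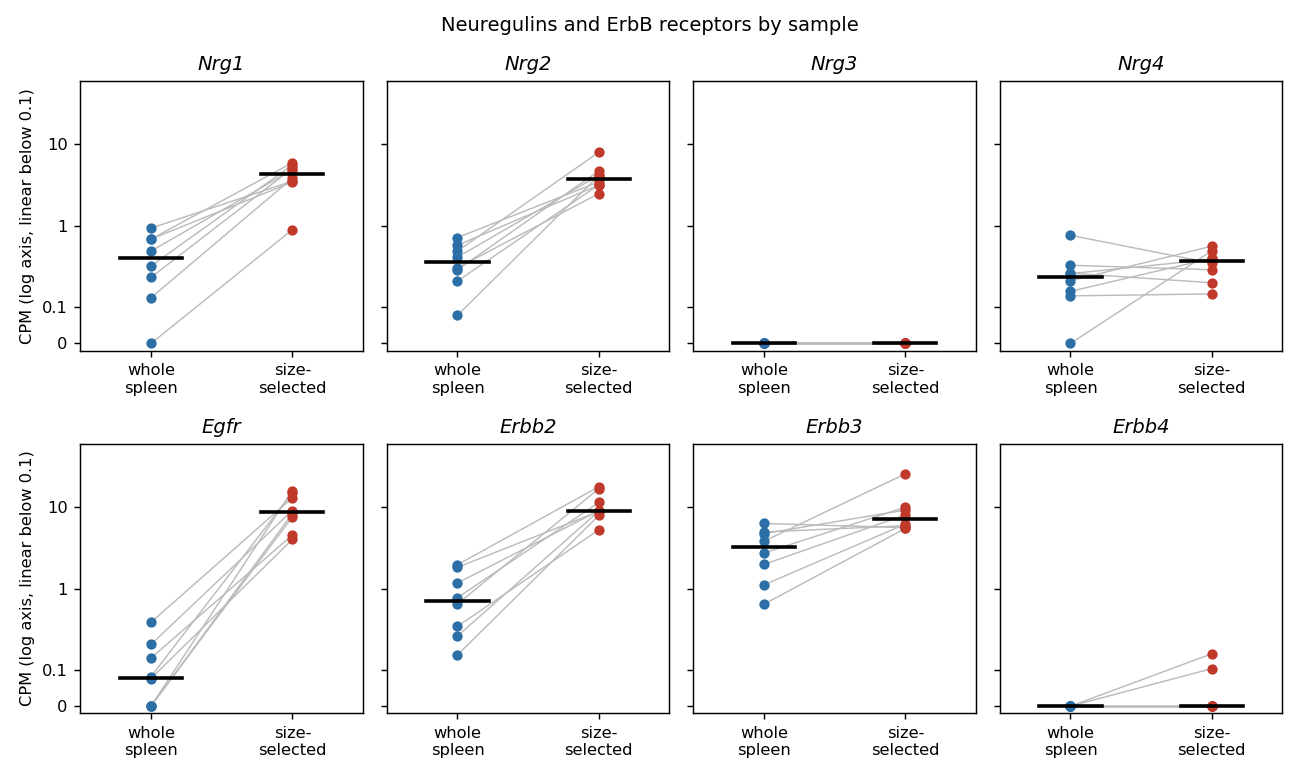
Level of each member in every sample, in CPM on a log axis that is linear below 0.1. Points are samples, grey lines join the whole spleen (blue) and size-selected (red) sample of a number, and black bars are medians. On these deposited counts Egfr, Erbb2 and Nrg2 separate the groups, Nrg1 and Erbb3 overlap, and Erbb4 is above 0 in 2 samples.

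Among the receptors, Egfr had the largest difference, Erbb2 followed, Erbb3 was higher by a smaller factor from a higher level in whole spleen, and Erbb4 was close to absent. Egfr (chr11:16752203-16918158, plus strand) encodes the receptor of EGF and its relatives. It was read at 58 to 293 counts per size-selected sample and at 0 to 6 counts per whole spleen sample, where 13 counts in all came from 5 samples. Its levels were 4.01, 8.69 and 15.9 CPM against 0, 0.0789 and 0.385 CPM. The groups were far apart in every number, with a log2 fold change of 6.29 (SE 0.52) and an adjusted p of 5.31e-09 (edgeR). The small whole spleen counts limit how well this change is known: the log2 fold change lay between 5.97 without number 436 and 6.83 without number 460.

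Erbb2 (chr11:98412470-98437716, plus strand), the shared partner receptor with no ligand of its own, had 5.26, 8.96 and 17.8 CPM in the size-selected samples. In whole spleen it had 0.153, 0.709 and 1.96 CPM. The groups did not overlap, and all 8 numbers had the higher value in the size-selected sample. The log2 fold change was 3.59 (SE 0.42), 12.1-fold, with an adjusted p of 4.80e-07 (edgeR). It was 4.36 in the 4 female numbers alone and 3.01 in the 4 male numbers alone.

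Erbb3 (chr10:128567523-128589652, minus strand), the neuregulin receptor of Schwann cells, was the member with the most RNA in whole spleen. There it had 0.642, 3.27 and 6.3 CPM, or 10 to 81 counts. The size-selected samples had 5.47, 7.09 and 25.6 CPM, so the groups overlapped, and the size-selected value was higher in 7 of 8 numbers; number 407 was the exception. The log2 fold change was 1.54 (SE 0.42), 2.91-fold, with an adjusted p of 0.0035 (edgeR). The size of this change rested on few samples: without number 436 it was 1.17, without number 407 it was 1.82, and in the 4 male numbers alone it was 0.99 with an adjusted p of 0.0589, which is not called. The female numbers alone gave 2.04.

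The deposited size-selected values of Erbb3 were also changed by a constant factor that no label or header mentions. In those columns 3898 genes hold 2-decimal values multiplied by 1 or more of 3 constants per sample; Erbb3 carries the middle one, Erbb4 the lowest and the other 6 members none. With the constants divided out, the log2 fold change of Erbb3 was 1.77, all 8 numbers were higher, and the lowest size-selected sample (6.19 CPM) stood just above the highest whole spleen sample (6.17 CPM).

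Erbb4 (chr1:68032186-69108059, minus strand), the receptor of neuregulins in heart and brain, was above 0 in 2 size-selected samples, with at most 3 counts, and at 0 in all 8 whole spleen samples. Both groups are at or under 3 counts per library, so no fold is given; without the filter edgeR did not call it (adjusted p of 0.0762).

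Of the 8 members, 5 were abundant enough to be tested and each was called higher, where 37.5% of the 14510 genes tested were called higher and 30.4% lower. The filter needs a minimum of 0.686 CPM of the unscaled total in 8 samples. All 5 reached it in 8 of 8 size-selected samples, but in whole spleen Egfr reached it in 0, Nrg1 and Nrg2 in 1 each, Erbb2 in 4 and Erbb3 in 7. Entry to the test thus leaned on the size-selected samples, and the count of called members carries no weight of its own. The authors' deposited table, which lists 2201 genes down to a log2 fold change of 3.50, holds 2 members: Egfr at 6.17 (SE 0.50; authors' mean TPM 2.94 against 0.0362) and Erbb2 at 3.61 (SE 0.40; 2.65 against 0.17).

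**Figure D2:**
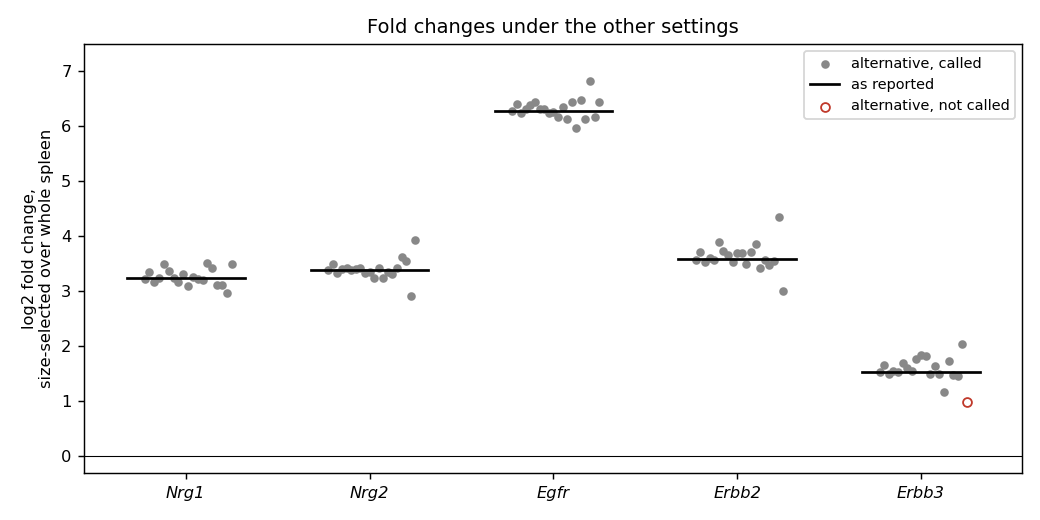
Log2 fold change (size-selected over whole spleen) of the 5 members past the filter, as reported (black bar) and under the other scalings, filters, tools, samples and restored counts (points). All points lie above 0, and 1 point, Erbb3 in the male numbers alone, is not called.

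The promoters of Egfr and Erbb2 are shown because they are the only members called higher that the RefSeq promoter table (GRCm38.p6) holds; it held 5 of the 8 members. Each window ends at the base before the annotated gene start. Capitals mark matches to the GC box (CCGCCC, or GGGCGG on the other strand), the CCAAT box (CCAAT, or ATTGG) or the TATA box (TATAAA, or TTTATA).
Egfr, chr11:16751953-16752202, plus strand: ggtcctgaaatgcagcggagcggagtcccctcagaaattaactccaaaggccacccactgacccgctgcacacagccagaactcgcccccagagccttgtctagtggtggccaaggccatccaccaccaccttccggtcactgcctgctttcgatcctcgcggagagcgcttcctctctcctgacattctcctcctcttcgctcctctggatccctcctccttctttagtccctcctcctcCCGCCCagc
Erbb2, chr11:98412234-98412469, plus strand: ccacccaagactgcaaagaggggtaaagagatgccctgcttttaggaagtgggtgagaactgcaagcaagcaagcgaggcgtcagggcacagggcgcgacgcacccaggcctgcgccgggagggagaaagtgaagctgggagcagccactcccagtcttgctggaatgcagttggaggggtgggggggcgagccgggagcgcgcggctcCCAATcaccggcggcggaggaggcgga
The Egfr window holds 1 GC box and no CCAAT or TATA box, and the Erbb2 window holds 1 CCAAT box and neither of the others. Over 32851 promoter windows of the table, 32.7% hold a GC box, 33.8% a CCAAT box and 12.4% a TATA box. The bases are 60.8% G or C in the Egfr window and 65.7% in the Erbb2 window, against a median of 52.4%.

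Levels were compared between members per kilobase of annotated exon. In the size-selected samples the medians ran from Erbb2 (1.72 CPM per kb) through Nrg2 (1.21), Erbb3 (1.18), Egfr (0.767) and Nrg1 (0.421) to Nrg4 (0.0606), with Nrg3 and Erbb4 at 0. Neighbours in this order overlapped in range down to Nrg4, whose lowest sample (0.0241 CPM per kb) lay above the highest of Erbb4 (0.0128). In whole spleen the order began with Erbb3 at 0.544 CPM per kb (range 0.107 to 1.05), ahead of Erbb2 at 0.136, Nrg2 at 0.114, Nrg1 at 0.0392, Nrg4 at 0.0388 and Egfr at 0.00697; the ranges of neighbours overlapped there too. With the longest annotated transcript as the length, the size-selected median of Nrg1 was 0.804 and that of Nrg4 0.176. That length put Nrg4 (0.112) above Nrg1 (0.0749) in whole spleen. With the constants divided out, Erbb3 (1.38) stood above Nrg2 (1.14) in the size-selected samples.

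**Figure D3:**
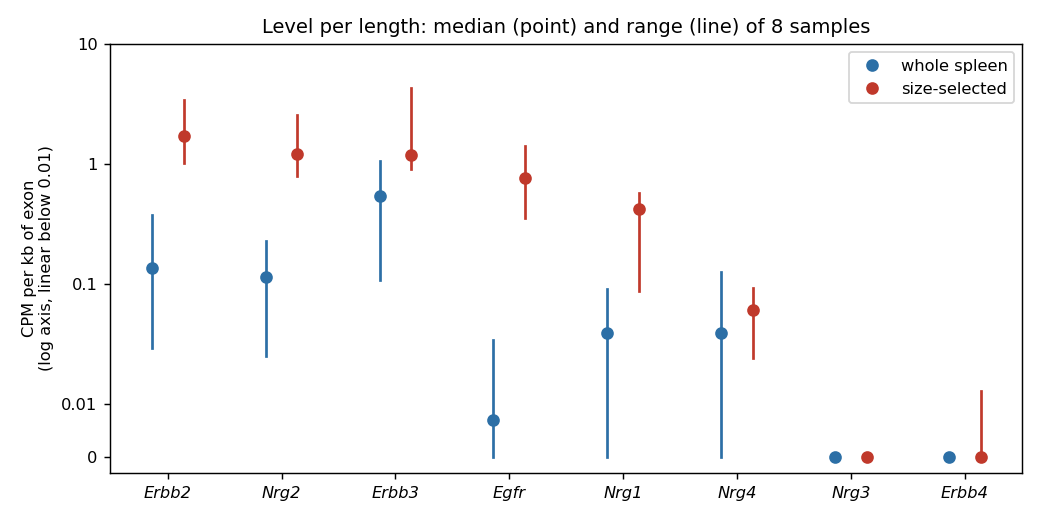
Level per length of the 8 members in CPM per kb of exon, on a log axis that is linear below 0.01. Points are medians and lines the full range of the 8 samples of a group; Erbb3 is the highest in whole spleen (median 0.544), and Erbb2 is the highest in the size-selected samples (median 1.72).

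The receptor pair ErbB2 and ErbB3 was compared within each sample. Per length, Erbb2 over Erbb3 was 0.0802, 0.243 and 1.39 (lowest, median, highest) in whole spleen and 0.756, 1.4 and 2.4 in the size-selected samples. The ratio was above 1 in 1 of 8 whole spleen samples and in 7 of 8 size-selected ones, or in 4 of 8 with the constants divided out (median 1.13). Egfr stayed below Erbb2 per length in all 16 samples, with a ratio of 0.234 to 0.792 in the size-selected samples. Nrg2 exceeded Nrg1 per length in all 8 size-selected samples (1.38 to 11.7) by exon length. By the longest transcript the ratio was 0.742 to 6.31, above 1 in 7 of 8, and number 408 turned to 0.742.

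Erbb3 had the highest correlation with the glial markers among the members. Across the 8 size-selected samples its log2 CPM rose with the glia score, the mean log2 CPM of the 9 tested glial markers, with Pearson's r of 0.93 (exact two-sided permutation p = 0.00201) and Spearman's rho of 0.81 (exact permutation p = 0.0218). Without numbers 427 and 436, which lie farthest from the median score, r was 0.78. Of the 40 relations computed, over 5 members and 8 cell type scores, none passed after Benjamini-Hochberg adjustment, and this relation had an adjusted p of 0.0542 for r and 0.218 for rho. On restored counts r was 0.93 with an adjusted p of 0.0454.

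In whole spleen, Erbb3 RNA was present while the defining glial markers were at or near 0. There Sox10 had at most 5 counts, Cdh19 at most 4 and S100b at most 7, beside 10 to 81 counts of Erbb3. The whole spleen sample of number 407 had the highest Erbb3 level of its group and a glia score of -1.29, within the range of -1.50 to 0.17 in that group. On deposited counts the 2 groups had overlapping Erbb3 levels at glia scores that did not overlap (3.01 to 5.51 in the size-selected samples). With the constants divided out the Erbb3 levels met without overlap, at 6.19 CPM in the lowest size-selected and 6.17 CPM in the highest whole spleen sample.

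**Figure D4:**
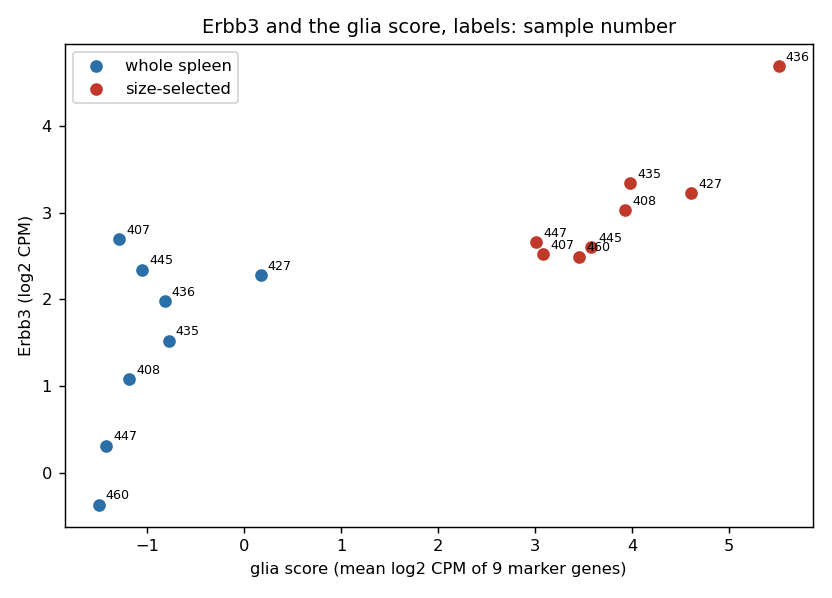
Erbb3 (log2 CPM) against the glia score (mean log2 CPM of 9 glial markers) in all 16 samples, labelled by number. In the size-selected samples (red) Erbb3 is highest in number 436, which also has the highest glia score (5.51); in whole spleen (blue) Erbb3 spans -0.37 to 2.69 at scores below 0.2.

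The size-selected sample of number 436, with the highest Erbb3 level, also held RNA of epithelial genes. It had 372 counts of Cldn4, 57 of Elf3 and 260 of Cdh1. Number 408 had 20, 17 and 103 counts of these, and the other 6 size-selected samples had at most 1 count of Cldn4, at most 3 of Elf3 and 22 to 105 of Cdh1. The other 3 epithelial markers were higher in number 445 than in number 436: Krt18 had 34.2 CPM in number 436 and 45.7 in number 445, Krt7 4.84 and 19.7, and Epcam 15.6 and 22.1. The summed level of the 6 markers was highest in number 445 (95.2 CPM), where Erbb3 was at 5.91 CPM, and 92.1 CPM in number 436. These sums rested on different markers, as Cldn4 and Elf3 had 0 counts in number 445. That sample also had the highest mesothelial sum of the size-selected samples, 265 CPM against 100 CPM in number 436. Whether the sums measure the same cells was not tested. Of the 6 epithelial markers, 4 could be tested and 3 were higher in the size-selected samples, where 37.5% of all genes tested were. Their summed level was 9.63 to 95.2 CPM against 13.3 to 25.8 CPM in whole spleen, where Elf3 was at 0. Epithelial cells express Erbb3 as well; the part of these cells in the level of number 436 was not tested.

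Among the other members, Egfr had an r of 0.88 with the fibroblast score (rho 0.88, exact permutation p = 0.00548 and 0.00724), of 0.89 with the endothelial score (rho 0.67, exact permutation p = 0.00459 and 0.0831) and of -0.84 with the T cell score (rho -0.88, exact permutation p = 0.00466 and 0.00724). Each of these had an adjusted p of 0.0542 for r. Without the 2 samples farthest from the median score, the r was 0.84 for fibroblasts (without 427 and 436), 0.54 for endothelium (without 408 and 435) and -0.94 for T cells (without 427 and 435). Nrg2 had an r of 0.82 with the fibroblast score (rho 0.69, exact permutation p = 0.00677 and 0.0694), with the same adjusted p of 0.0542 and 0.64 without 427 and 436. Values of similar size held for other scores, so these relations were not particular to 1 cell type. Egfr had an r of -0.85 with the B cell score and of 0.82 with the smooth muscle score. Nrg2 had an r of 0.82 with the endothelial score and of -0.82 with the T cell score. Their adjusted p ran from 0.061 to 0.089 (exact permutation). Erbb2 had an r of 0.67 with the glia score, which was -0.21 without numbers 427 and 436, so it rested on those samples (rho 0.33, exact permutation p = 0.0668, adjusted p = 0.206). With the fibroblast score Erbb2 had an r of 0.81 (rho 0.81, exact permutation p = 0.018, adjusted p = 0.0798), which was 0.18 without the same numbers. Nrg1 had an r of -0.12 with the glia score and of 0.20 with the fibroblast score, with adjusted p of 0.887 and 0.806 (exact permutation).

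For each member past the filter, the genes with the most similar deviations from the group means were found over the 16 samples among the 10784 genes whose log2 CPM averaged 2 or more, as a description. For Nrg1 these were Ptbp2 (r = 0.94), Naip5 (0.85) and Gins3 (0.83), and for Nrg2 Rnf215 (0.90), Tmem237 (0.89) and Mesd (0.87). Egfr was nearest to Ppp1r12b (0.86), Sgcb (0.85) and Lgals8 (0.85), and Erbb2 to Slc22a17 (0.88), Mapkap1 (0.87) and Rasl11a (0.85). Erbb3 was nearest to Slc35e3 (0.89), Usp20 (0.82) and Lpar1 (0.80), a receptor for lysophosphatidic acid. Within the groups these values could differ: in the size-selected samples the r with Erbb3 was 0.82, 0.51 and 0.60 for these 3 genes, and in whole spleen 0.93, 0.95 and 0.87. For Mapkap1 with Erbb2 it was 0.68 and 0.94, and for Naip5 with Nrg1 0.72 and 0.93. The whole spleen deviations rest on few counts, at most 13 per sample for Nrg1, 11 for Nrg2 and 6 for Egfr. How high the nearest of 10784 genes would lie by chance was not computed.

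The genes around the receptors were taken from 5 lists with 52 genes, of which 46 could be tested, 31 were called higher and 5 lower; the median log2 fold change was 0.61 against 0.05 over all genes tested, of which 37.5% were higher and 30.4% lower. These shares are the background for the count of each list below. Scaling by library totals moved the median of all genes to 0.18 and left 3 of the 46 lower.

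Of the 7 other EGF family ligands, 4 could be tested, 3 were higher and none was lower, against the background of 37.5% and 30.4% (list median 3.33). Btc, which binds EGFR and ErbB4, had 25 to 84 counts per size-selected sample and 3 counts in all of whole spleen, and was at least 12-fold higher when a floor of 3 counts per library is set for whole spleen. Hbegf, another ligand of both receptors, was the most abundant of these 7 ligands in the size-selected samples, at a median of 18.1 CPM per kb. In whole spleen it had 1.38 CPM per kb, below Areg at 2.81. Its log2 fold change was 3.65 (SE 0.23, adjusted p of 3.52e-10, edgeR). Tgfa, an EGFR ligand, was higher by 3.01 on the log2 scale (SE 0.35, adjusted p of 4.52e-07). Areg (amphiregulin) went against them, with medians of 2.54 CPM in the size-selected samples and 3.41 in whole spleen, lower in 7 of 8 numbers but not called (log2 fold change -0.44, adjusted p of 0.0697; on restored counts -0.49, adjusted p of 0.0419). Ereg (epiregulin) had 5 to 50 counts per size-selected sample and 0 in all whole spleen samples, below the filter and at least 5.6-fold higher by the same floor. Egf had at most 18 counts and Epgn at most 1 count in any sample.

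Of the 6 genes that cut neuregulins from the membrane or process what remains, all were tested, 4 were higher and 1 lower, against 37.5% and 30.4% of all genes (list median 0.72). Bace1, the beta-secretase that processes Nrg1 in nerve, had the largest difference, at 2.98 on the log2 scale (SE 0.30, adjusted p of 6.26e-08). The metalloproteases Adam10 and Adam17 were higher by 0.94 (SE 0.14) and 0.93 (SE 0.13), and the gamma-secretase subunit Ncstn by 0.52 (SE 0.10). Adam19, another metalloprotease, was lower by 0.52 (log2 fold change -0.52, adjusted p of 0.0111), a call that was lost with its constant divided out (-0.27, adjusted p of 0.172) and without number 445 (-0.41, adjusted p of 0.0608).

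Of the 16 adaptors and relays that carry the signal from the receptors, all were tested, 9 were higher and 3 lower, against 37.5% and 30.4% of all genes (list median 0.32). The PI3-kinase subunits Pik3r3 (log2 fold change 5.55, SE 0.25) and Pik3cb (1.74, SE 0.19), the docking protein Gab1 (3.33, SE 0.23) and the ERK kinase Mapk3 (1.42, SE 0.15) had the largest rises, with adjusted p from 1.93e-11 to 2.52e-07. The adaptors Grb7 (-1.69, SE 0.36) and Grb2 (-0.50, SE 0.12) fell, with the size-selected value lower in all 8 numbers for each. Grb7 carries the low constant (0.659 to 0.789 per sample), which lowers its deposited size-selected values and so enlarges its fall.

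Of the 15 scaffolds and brakes, 14 were tested, 9 were higher and 1 lower, against 37.5% and 30.4% of all genes (list median 0.63), and with the number as a block 11 were higher. The feedback inhibitors Spry4 (log2 fold change 4.68, SE 0.24) and Spry1 (4.21, SE 0.26), the ErbB kinase inhibitor Errfi1 (3.89, SE 0.24) and Lrig3 (3.78, SE 0.43), of the family of Lrig1, had the largest rises. Lrig1, which lowers the level of ErbB receptors, was higher by 0.77 (SE 0.19, adjusted p of 0.00153). Rnf41, the ubiquitin ligase of ErbB3, was not called (-0.12, SE 0.11). Picalm, a clathrin adaptor of receptor uptake, was lower by a small amount (-0.32, SE 0.09, adjusted p of 0.00505). It carries the high constant (0.889 to 0.964 per sample), which lowers its deposited size-selected values.

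Of the 8 genes known as targets of neuregulin signalling in Schwann cells, 6 were tested and all 6 were higher, where 37.5% of all genes were (list median 2.46). Pou3f1, a transcription factor of promyelinating Schwann cells, had a log2 fold change of 3.79 (SE 0.55), the myelin gene Pmp22 of 3.63 (SE 0.21), and the immediate early genes Jun and Egr1 of 3.05 (SE 0.18) and 1.88 (SE 0.18). Egr2, the myelination factor, was higher by a smaller amount (0.47, SE 0.15, adjusted p of 0.00942), from 839 to 1127 counts in whole spleen. Sox10 is also in the glial marker list. Pmp22, Jun, Egr1 and Egr2 are also expressed outside glia, and the markers of the other cell types given above moved with the same samples.

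**Figure D5:**
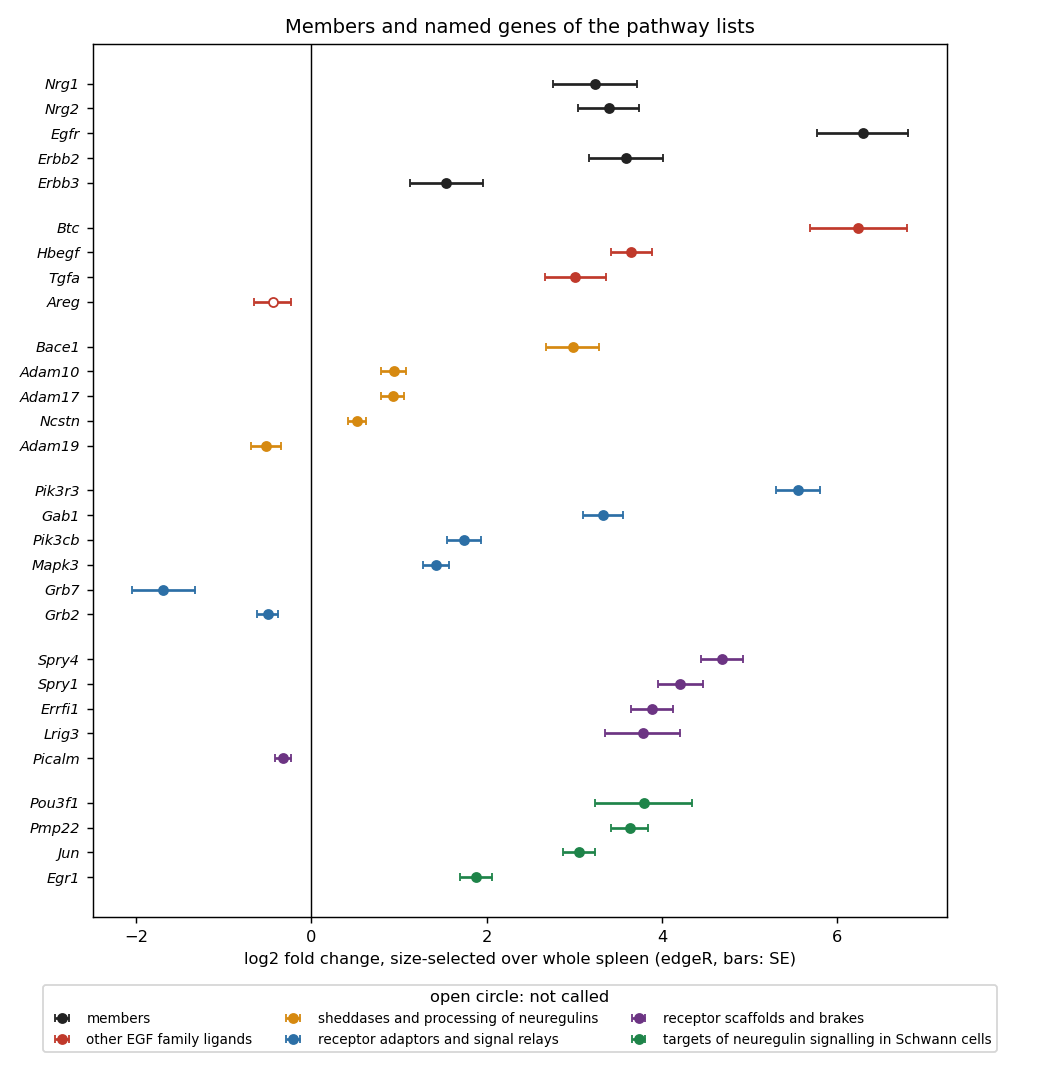
Log2 fold change, size-selected over whole spleen, with its standard error, for the 5 members past the filter and genes named from the 5 lists (colours). Filled points were called by edgeR and the open point (Areg) was not. The points reach from -1.69 for Grb7, whose size-selected values carry the low constant, to 6.29 for Egfr.

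The sexes were compared within each group. In the size-selected samples all 5 members past the filter were tested and none was called, where 0.0397% of 15127 genes were. Egfr had the largest female minus male difference, at 0.59 (SE 0.39, adjusted p of 0.999), with means of 11.6 ± 3.56 CPM (SD, n = 4) in females and 7.77 ± 5.04 CPM (SD, n = 4) in males. In whole spleen, 2 members passed the filter and none was called, where 0.194% of 13383 genes were. That share rests on 26 calls and was not stable, with 521 calls in DESeq2 and 7 to 261 without 1 number. Erbb2 had a difference of -1.33 (SE 0.66, adjusted p of 0.345), with 0.506 ± 0.243 CPM (SD, n = 4) in females and 1.27 ± 0.824 CPM (SD, n = 4) in males, and Erbb3 one of -0.59 (SE 0.57, adjusted p of 0.64).

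The interaction of sex and fraction, which asks whether the fold change differs between the sexes, called no member. It also called 0% of the 15760 genes tested with edgeR, of which 744 had an unadjusted p under 0.05; DESeq2 called 3 genes and the fit with the number as a block 3. Erbb2 had the largest interaction among the members, at 1.28 (SE 0.75, adjusted p of 1), followed by Nrg2 at -1.08 (SE 0.67) and Erbb3 at 0.98 (SE 0.84).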

How the data were processed

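RNA-seq was measured in 8 size-selected and 8 whole spleen samples. Trim Galore, STAR, RSEM, DESeq and build mm10 are named in the submitters' processing notes, with no versions or roles. The authors deposited estimated counts per gene. The authors' deposited table of comparisons gives, per the file headers, a mean signal per gene, log2 fold changes with standard errors, a test score, p-values, and group mean TPM and FPKM values; the score, signal and FPKM were not used here. In the size-selected columns of the deposited counts, constants multiply 456 (low), 1874 (middle) and 1999 (high) genes, found from the values alone. Dividing them out gave the restored counts. Among the named pathway genes, Grb7 carries the low constant, Adam19 and Ncstn the middle one, and Mapk3, Picalm, Jun and Egr1 the high one. Pmp22 carries the middle and the high one.

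Counts were rounded and fitted with edgeR 4.0.16 in R 4.3.3 (filterByExpr with a minimum count of 10, TMM, quasi-likelihood test, Benjamini-Hochberg adjusted p under 0.05 over all genes tested). The group was the only term for the fraction comparison; sex was tested within a group, and with an interaction over all samples. CPM uses TMM-scaled totals, and log2 CPM a prior count of 2. Correlations used exact tests over 40320 pairings. Annotation was GENCODE M21 on GRCm38, in which 54809 of the 54838 identifiers were found. Whether counting used strand is not given in the sources used here; opposite-strand exons cover 4.66% of the exon bases of Nrg1, 8.97% of Nrg4 and 0.173% of Erbb2, and none of the other members'.

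Same-numbered samples deviated together on average: the correlation of their deviations from the group means was 0.12 to 0.38 in the 8 pairs (mean 0.21). In 56 other pairs it was -0.33 to 0.23 (mean -0.03), so the ranges overlapped. The block changed no call of a member.

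The members and gene lists were chosen with earlier results of these data known. The rule named all members, each EGF family ligand, up to 4 called genes in each direction per list with the largest fold change, and 3 genes per member by likeness, and some genes of the lists are not reported here by name; Lrig1, Rnf41 and Egr2 were chosen after their values were seen. On simulated data with a log2 change of 2 set in 200 genes, the fraction fit called 190 of 198 changed genes past the filter (14357 tested), the interaction 129 of 200 (14504 tested), and the sex fits 184 of 200 in whole spleen (13122 tested) and 176 of 200 in size-selected samples (14895 tested). Alternatives were RLE scaling, library totals, no filter, a minimum count of 30, DESeq2 1.42.0, limma-voom (limma 3.58.1), the replicate block, sex as a covariate, restored counts, each sex alone, another prior count, another gene length and leaving out each number.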

Additional observations from a re-analysis of the deposited data

Results flagged for a closer look

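Among the 12 groups of 8 values screened for the members, 2 held a sample apart from the rest by Dixon's test. The test sets the gap to the nearest sample against the group's range, and chance flags about 1 group in 20. Gap and range were taken on a log scale after a pseudocount was added to the CPM. The plain CPM values given below therefore do not yield the tested ratio. The size-selected sample of number 435 had 0.896 CPM of Nrg1, and the next lowest sample had 3.44 CPM. The whole spleen sample of the same number had 0 CPM of Nrg1, the lowest of its group. The size-selected sample of number 436 had 25.6 CPM of Erbb3, and the next highest sample had 9.98 CPM. Among the size-selected samples it also had the highest summed level of glial (685 CPM), fibroblast (3664 CPM) and megakaryocyte markers (627 CPM). Its epithelial sum was 92.1 CPM, below the 95.2 CPM of number 445. Its Cldn4 count was the highest, at 372, against 0 in number 445.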

How the results depend on the processing

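Egfr, Erbb2 and Nrg2 kept their direction and call under all 20 alternatives, Nrg1 under all 19 in which it was tested (it was below the filter with a minimum count of 30), and Erbb3 under 19 of 20. Leaving out 1 number at a time gave log2 fold changes of 5.97 to 6.83 for Egfr, 3.42 to 3.87 for Erbb2, 1.17 to 1.82 for Erbb3, 3.10 to 3.52 for Nrg1 and 3.24 to 3.62 for Nrg2. With the replicate block they were 6.32, 3.74, 1.60, 3.37 and 3.41 in the same order, and no call of a member changed. The pathway genes called lower went from 5 to 3 with library totals, and Adam19 lost its call there (-0.39) as on restored counts. Relations passing the adjustment went from 0 to 4 on restored counts. Level per length moved to 0.804 for Nrg1 and 0.176 for Nrg4 with the longest transcript. Differences that changed sign were all far from the threshold. In size-selected samples the sex difference of Nrg1 was -0.04; it became 0.28 with limma-voom and ran from -0.38 to 0.21 without 1 number (0.06 without 407, 0.21 without 408, 0.00 without 427, 0.02 without 436 and 0.04 without 445). Likewise that of Nrg2 ran from -0.38 to 0.19 (without 427), that of Erbb2 from -0.35 to 0.25 (without 427; 0.19 without 445 and 0.03 without 447), and that of Erbb3 from -0.51 (without 436) to 0.60. The Egfr interaction ran from -1.0 to 0.65 (without 460; 0.02 without 407 and 0.15 without 427). Genes called by sex in whole spleen numbered 26, against 521 with DESeq2, 273 with no filter and 7 to 261 without 1 number (261 without 427, 87 without 436, 12 without 435, 17 without 407, 8 without 445, 8 without 447, 7 without 460). In size-selected samples they numbered 6, against 22 with DESeq2. The cause of these changes was not tested. Depth limits Nrg4 and Erbb4, and the whole spleen levels of Egfr, Nrg1 and Nrg2, which rest on at most 13 counts per sample.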
